A study of Mus musculus with 5 samples.

Results

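Sphingomyelinase and sphingosine phosphate genes were followed in primary mouse lung fibroblasts exposed to TGF-β1. The set held 10 genes of the 55335 in the count table: Smpd1, Smpd3, Asah1, Sphk1, Sphk2, Sgpl1, Sgpp1, S1pr1, S1pr2 and S1pr3. It was chosen by the large difference of Smpd3 between the TGF-β1 and control libraries, and the other 9 genes were added by their place in the same pathway. The Smpd3 difference is therefore given as a description with no test. The 9 other genes were tested in a fit across all genes, with earlier results of these data known when they were listed. All 10 were matched by symbol and passed the filter on low counts, each on substantial counts in both groups except Smpd3, which was scarce with TGF-β1.

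Cells isolated from mouse lung and grown in culture had received vehicle (2 control libraries) or TGF-β1, a cytokine used to turn fibroblasts into matrix-secreting myofibroblasts, at 5 ng/mL for 24 h (3 libraries). The labels give no strain, genotype, sex or age of the mice, and no allele or agent beyond vehicle and TGF-β1. Polyadenylated RNA was sequenced, and libraries held 34283288 to 43163967 counts. The series calls the replicates independent and names no animals or dishes for them, so the spread behind each p-value is that among 5 libraries and may be partly technical.

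Sphingolipids are membrane lipids that also act as signals. Sphingomyelinases cut sphingomyelin to ceramide, ceramidases cut ceramide to sphingosine, and sphingosine kinases phosphorylate sphingosine to sphingosine 1-phosphate (S1P). S1P leaves the cell and acts on G protein-coupled receptors, or is removed inside the cell by a lyase or by phosphatases. In lung fibroblasts, S1P signalling is known for its links with TGF-β signalling and with contractility.

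All 6 genes listed as a check of the TGF-β response were higher in the treated libraries, with a summed level of 4379 to 4441 CPM in controls and 13831 to 14850 with TGF-β1. CPM give a gene's counts relative to its library's total, with library sizes scaled by trimmed-mean (TMM) factors, and a positive log2 fold change means a higher level with TGF-β1. Across 16380 tested genes, 44.5% passed edgeR's quasi-likelihood test at an adjusted p under 0.05, 21.3% higher and 23.2% lower with TGF-β1. The count profile of TGF-β1 replicate 3 differed most within its group, with a chi-square statistic of 8.47 and 8.41 per degree of freedom against replicates 1 and 2, and 4.06 between those. The fibroblast genes on the marker list were abundant except Lum, a matrix proteoglycan gene, at 2 to 22 counts per library. The fibroblast list summed to 45423 to 46932 CPM in controls and 53456 to 53913 CPM with TGF-β1, with 5 of 10 higher and 5 lower. The epithelial list was at 85.6 to 90.98 CPM and 80.9 to 85.1 CPM, with Sftpc, Sftpb, Nkx2-1 and Scgb1a1 at 0. The mesothelial markers summed to 1537 to 1628 CPM in controls and 206 to 234 CPM with TGF-β1, with 10 of 10 lower. The leukocyte markers summed to 2434 to 2516 CPM in controls and 1467 to 1499 CPM with TGF-β1, with 7 of 8 tested lower and 1 higher, and the T cell gene Cd3e at 0. Most of this sum was Lyz2, at 1959.5 to 2029.5 CPM in controls and 1128 to 1150 CPM with TGF-β1. Ptprc was at 25.4 to 27.3 CPM in controls and 31.5 to 32.9 CPM with TGF-β1. The mural list (smooth muscle and pericyte genes) went from 2776 to 2874 CPM to 2326 to 2370 CPM, with 2 of 8 tested higher, 4 lower and Higd1b at 0. In bulk RNA, fewer cells of a type and less RNA per cell cannot be told apart.

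Of the 9 members other than Smpd3, 1 rose (Sphk1), 3 fell (Smpd1, Sgpp1 and S1pr3) and 5 did not pass (Asah1, Sphk2, Sgpl1, S1pr1 and S1pr2). This count stands beside 44.5% called among all tested genes, 21.3% higher and 23.2% lower. In log2 fold change the 9 had a median of −0.11, beside 0.00 over all tested genes. When library totals replaced TMM factors, the median of all genes moved to −0.10, and 1 of the 9 was called higher and 7 lower. Among all 16380 tested genes, 2325 were then called higher and 4921 lower.

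**Figure D1:**
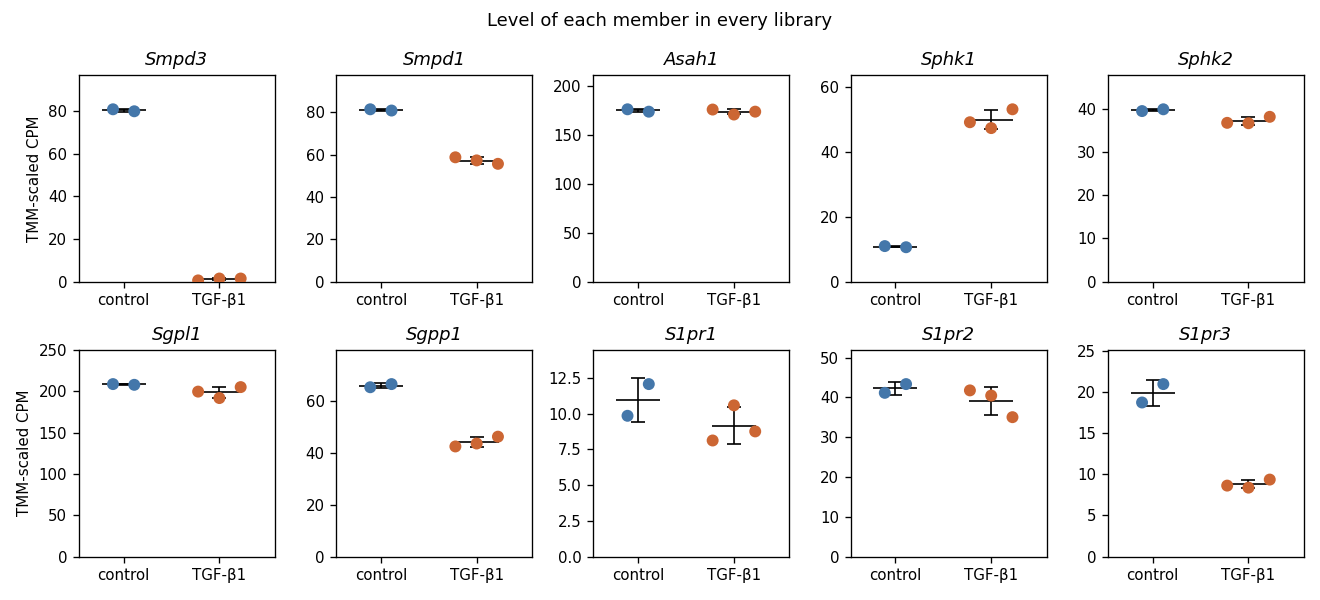
Level of each of the 10 members in TMM-scaled CPM (vertical axis, from 0) for the 2 control and 3 TGF-β1 libraries. Points are libraries and black bars are the mean with the SD. Smpd3 went from about 80.3 to 1.21 CPM and Sphk1 from 10.8 to 49.7 CPM, while the Asah1, S1pr1 and S1pr2 groups overlapped.

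Among the sphingomyelinases, Smpd3 encodes neutral sphingomyelinase 2, a membrane enzyme known for releasing ceramide at the plasma membrane and Golgi (ENSMUSG00000031906, chromosome 8, 106252548 to 106337988 of GRCm38, minus strand). The control libraries held 2875 and 3357 Smpd3 counts, and those with TGF-β1 held 25, 63 and 58. Scaled to CPM, Smpd3 was at 80.8 and 79.8 in the controls and at 0.622, 1.5 and 1.5 with TGF-β1. The controls lay within a narrow range, and TGF-β1 replicate 1 was the lowest library of its group. The 95% Poisson interval for its 25 counts, 16.2 to 36.9, did not reach the intervals of replicate 2 (48.4 to 80.6) and replicate 3 (44.04 to 74.98), which cover counting error only. Smpd3 averaged 80.3 ± 0.657 CPM (SD, n = 2) in controls and 1.21 ± 0.507 CPM (SD, n = 3) with TGF-β1, a log2 fold change of −6.05, or 66.3-fold lower. Leaving out each library in turn, this value ran from −6.24 to −5.73.

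The Smpd3 exons share 247 bases, or 4.72% of their length, with Prmt7, an arginine methyltransferase gene on the opposite strand, and the strand setting of the counting is not given in the sources used here. Prmt7 itself was at 22.5 ± 0.113 CPM in controls and 23.3 ± 2.27 CPM with TGF-β1 and did not pass (log2 fold change 0.05, edgeR adjusted p = 0.67). The mesothelial and leukocyte marker sums given above were lower in the same TGF-β1 libraries, and their part in the Smpd3 difference was not tested.

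Smpd1 encodes acid sphingomyelinase, which acts in lysosomes and after secretion (ENSMUSG00000037049, chromosome 7, 105554360 to 105558389, plus strand). It was at 81.5 and 80.9 CPM in the controls and at 58.8, 57.3 and 55.7 CPM with TGF-β1. Every treated library lay below both controls. Smpd1 fell from 81.2 ± 0.417 CPM (SD, n = 2) to 57.3 ± 1.54 CPM (SD, n = 3), or 1.42-fold (log2 fold change −0.50, SE 0.045, edgeR adjusted p = 1.9e-05). Per kb of annotated exon, Smpd1 was at 24.3 CPM and Smpd3 at 15.3 CPM in the controls. With TGF-β1 these levels were 17.2 and 0.231. The leukocyte markers, which include genes of lysosome-rich macrophages, had a lower sum, most of it Lyz2, in the same libraries. Their part in the Smpd1 decrease was not tested.

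Asah1 encodes acid ceramidase, the lysosomal enzyme that makes sphingosine from ceramide (ENSMUSG00000031591, chromosome 8, 41340197 to 41374773, minus strand). Its level was 177 and 174 CPM in the controls and 176, 171 and 174 CPM with TGF-β1. The groups overlapped, and Asah1 did not pass (log2 fold change −0.01, SE 0.033, edgeR adjusted p = 0.8). With library totals it was called lower (log2 fold change −0.11, edgeR adjusted p = 0.02), and its sign turned without TGF-β1 replicate 2 (log2 fold change 0.0043).

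Sphk1 and Sphk2 encode the sphingosine kinases: the first is mainly a cytosolic enzyme that moves to the plasma membrane, and the second is found also in the nucleus and other organelles. Sphk1 (ENSMUSG00000061878, chromosome 11, 116530925 to 116536674, plus strand) was at 10.96 and 10.6 CPM in the controls and at 49.02, 47.2 and 53.001 CPM with TGF-β1. All 3 treated libraries lay far above both controls. Sphk1 rose from 10.8 ± 0.247 CPM (SD, n = 2) to 49.7 ± 2.96 CPM (SD, n = 3), or 4.62-fold (log2 fold change 2.21, SE 0.073, edgeR adjusted p = 2.2e-08). Its exons share 192 bases with the antisense gene Gm29292, which had at most 19 counts in any library.

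Sphk2 (ENSMUSG00000057342, chromosome 7, 45709467 to 45718002, minus strand) was at 39.5 and 39.9 CPM in the controls and at 36.7, 36.7 and 38.1 CPM with TGF-β1. Every treated library was slightly below both controls, and Sphk2 did not pass (log2 fold change −0.09, SE 0.052, edgeR adjusted p = 0.17). With library totals it was called lower (log2 fold change −0.19, edgeR adjusted p = 0.013). The Sphk2 level is uncertain, since its exons share 373 bases with the ribosomal protein gene Rpl18 (256 ± 3.31 CPM in controls, 313 ± 7.97 with TGF-β1) and 539 bases with Dbp (6.75 ± 1.32 and 3.16 ± 0.752 CPM), both on the opposite strand.

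On the side of S1P removal, Sgpl1 encodes the lyase that cleaves S1P irreversibly, and Sgpp1 encodes a phosphatase that returns it to sphingosine. Sgpl1 (ENSMUSG00000020097, chromosome 10, 61098642 to 61147703, minus strand) was at 209 and 208 CPM in the controls and at 199.5, 192 and 205 CPM with TGF-β1. The treated libraries lay just below the controls, and Sgpl1 did not pass (log2 fold change −0.07, SE 0.036, edgeR adjusted p = 0.17). It was called lower with library totals (log2 fold change −0.17, edgeR adjusted p = 0.0045) and without TGF-β1 replicate 3 (log2 fold change −0.09, edgeR adjusted p = 0.045). Sgpp1 (ENSMUSG00000021054, chromosome 12, 75714249 to 75735729, minus strand) was at 65.1 and 66.3 CPM in the controls and at 42.3, 43.5 and 46.1 CPM with TGF-β1. The groups were well apart. Sgpp1 fell from 65.7 ± 0.855 CPM (SD, n = 2) to 43.97 ± 1.93 CPM (SD, n = 3), or 1.49-fold (log2 fold change −0.58, SE 0.053, edgeR adjusted p = 1.9e-05).

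S1P receptors differ in the G proteins they use: S1pr1 couples to Gi alone, while S1pr2 and S1pr3 also reach Gq and G12/13. S1pr3 (ENSMUSG00000067586, chromosome 13, 51408639 to 51422797, plus strand) was at 18.7 and 20.97 CPM in the controls and at 8.63, 8.38 and 9.36 CPM with TGF-β1. No treated library came near a control. S1pr3 fell from 19.9 ± 1.58 CPM (SD, n = 2) to 8.79 ± 0.51 CPM (SD, n = 3), or 2.26-fold (log2 fold change −1.18, SE 0.097, edgeR adjusted p = 9.96e-06). The mesothelial marker sum was lower in the same libraries. The mural markers went both ways: Myh11 was at 489 to 499 CPM in controls and 316 to 318 CPM with TGF-β1, while Cspg4 was at 3.99 to 4.64 CPM and 46.1 to 50.1 CPM. The part of either list in the S1pr3 decrease was not tested.

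S1pr2 (ENSMUSG00000043895, chromosome 9, 20962361 to 20976781, minus strand) was at 41.1 and 43.3 CPM in the controls and at 41.8, 40.5 and 35.03 CPM with TGF-β1. The groups overlapped, with TGF-β1 replicate 3 the lowest library. S1pr2 did not pass (log2 fold change −0.11, SE 0.077, edgeR adjusted p = 0.27), though with library totals it was called lower at the edge of the threshold (log2 fold change −0.21, edgeR adjusted p = 0.04993). S1pr1 (ENSMUSG00000045092, chromosome 3, 115710433 to 115715072, minus strand), best known from endothelium and lymphocytes, was at 9.86 and 12.1 CPM in the controls and at 8.13, 10.6 and 8.76 CPM with TGF-β1. The groups overlapped, and the spread between libraries was wide for the size of the difference (log2 fold change −0.26, SE 0.14, edgeR adjusted p = 0.17). The endothelial markers summed to only 25.2 to 29.6 CPM in controls and 32.8 to 34.4 CPM with TGF-β1. Most of it was Esam, at 18.4 to 21.9 CPM in controls and 26.3 to 28.3 CPM with TGF-β1. The next most abundant, Egfl7, was at 2.39 to 2.64 CPM and 1.95 to 2.66 CPM. Of the 7 tested, 1 was higher and 0 were lower, with a median log2 fold change of −0.14. The 2 other S1P receptor genes, S1pr4 and S1pr5, were too scarce to test, with at most 6 and 2 counts in any library.

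Every TGF-β1 library lay on 1 side of both controls in 6 of these 9 genes, beside 64.6% of all tested genes. The exceptions were Asah1, S1pr1 and S1pr2.

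RefSeq promoter windows on GRCm38.p6 were matched for 7 of the 10 members, with 12 windows in all. The 250 bases before each annotated start were searched on both strands for 4 motifs: the SMAD element core CAGAC, in 42.2% of all 32851 windows of this length; the SMAD palindrome GTCTAGAC, in 0.167%; the GC-rich SMAD element GGCGCC, in 9.59%; and the AP-1 element TGANTCA, in 6.75%. No window of a member held more than 1 kind of motif. A window is shown for each of the 4 members that passed the test, to set the gene that rose beside the 3 that fell, with matches in capitals. Each printed window holds no annotated exon, and Sphk1, with 5 starts, is shown for the start whose window holds none (chr11:116532194-116532443, plus strand). The others are S1pr3 (chr13:51408368-51408617, plus strand), Smpd1 (chr7:105554110-105554359, plus strand) and Sgpp1 (chr12:75735730-75735979, minus strand).
Sphk1: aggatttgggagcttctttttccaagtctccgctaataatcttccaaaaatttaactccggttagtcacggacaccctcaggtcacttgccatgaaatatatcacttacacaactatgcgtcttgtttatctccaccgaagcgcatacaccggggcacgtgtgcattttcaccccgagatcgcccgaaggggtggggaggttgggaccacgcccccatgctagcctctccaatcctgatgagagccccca
S1pr3: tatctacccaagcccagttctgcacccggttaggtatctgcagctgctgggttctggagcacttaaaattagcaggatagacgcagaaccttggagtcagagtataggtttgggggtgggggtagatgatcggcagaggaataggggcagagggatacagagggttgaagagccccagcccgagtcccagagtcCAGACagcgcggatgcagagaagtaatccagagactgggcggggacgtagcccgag
Smpd1: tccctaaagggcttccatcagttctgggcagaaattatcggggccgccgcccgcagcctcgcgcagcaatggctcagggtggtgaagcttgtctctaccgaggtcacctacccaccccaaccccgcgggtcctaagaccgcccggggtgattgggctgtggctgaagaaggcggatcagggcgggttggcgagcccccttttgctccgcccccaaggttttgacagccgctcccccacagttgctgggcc
Sgpp1: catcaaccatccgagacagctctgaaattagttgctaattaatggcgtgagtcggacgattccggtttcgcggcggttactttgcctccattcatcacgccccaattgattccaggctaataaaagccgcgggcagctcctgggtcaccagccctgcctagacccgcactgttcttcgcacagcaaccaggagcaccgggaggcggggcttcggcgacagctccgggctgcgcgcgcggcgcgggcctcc
S1pr3 held 1 CAGAC match, and the printed windows of Sphk1, Smpd1 and Sgpp1 held 0 matches to any of the 4 motifs. Among the other Sphk1 windows, the most upstream held 1 CAGAC, and 2 overlapping windows shared 1 TGANTCA. The Sgpl1 window held 3 GGCGCC, 1 of the 2 Sphk2 windows held 1 GGCGCC, and the S1pr2 window held 0 matches. A match is a description of letters, and binding was not measured.

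Levels of different genes were compared per kb of annotated exon. In the controls, Asah1 was at 51.7 ± 0.508 CPM per kb, Sgpl1 at 33.9 ± 0.101, Smpd1 at 24.3 ± 0.125 and Smpd3 at 15.3 ± 0.126. Sgpp1 (11.6 ± 0.151 CPM per kb) and Sphk2 (9.54 ± 0.0701) followed. The receptors came next, S1pr2 at 5.3004 ± 0.195 CPM per kb, S1pr3 at 4.45 ± 0.355 and S1pr1 at 3.601 ± 0.515, and Sphk1 was last at 2.26 ± 0.0517. With TGF-β1 the first 3 places were the same, Sphk1 came next at 10.4 ± 0.619 CPM per kb, and Smpd3 was last at 0.231 ± 0.0969. S1pr1 (3.01 ± 0.42 CPM per kb) then stood above S1pr3 (1.97 ± 0.114). No 2 neighbours in either order had overlapping libraries, though 2 or 3 libraries a group say little about the spread. With the length of the longest annotated transcript instead, Sgpp1 moved up to the place after Smpd1 in each group.

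**Figure D2:**
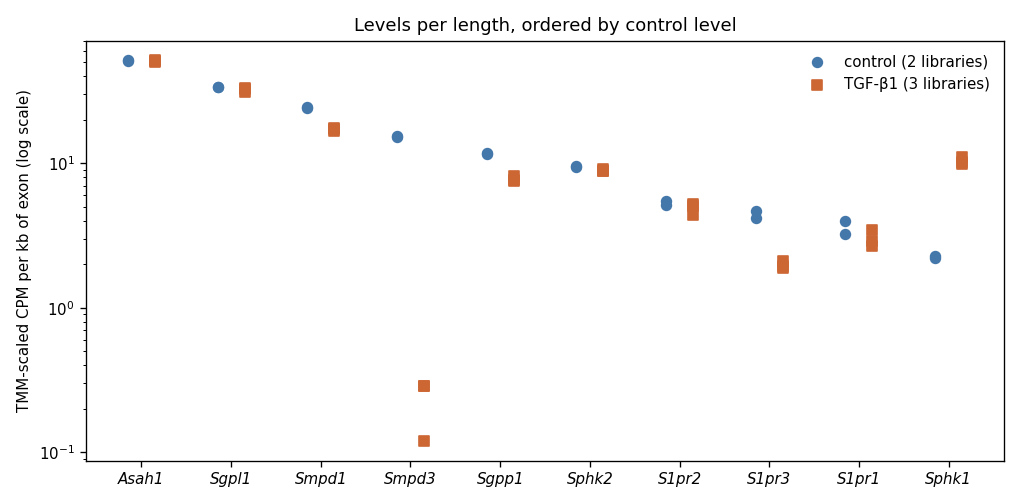
Levels of the 10 members in TMM-scaled CPM per kb of annotated exon (vertical log axis), ordered by control level. Circles are the 2 control libraries and squares the 3 TGF-β1 libraries. Smpd3 stood just after Smpd1 in controls and last with TGF-β1, and Sphk1 the other way round.

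Families were then described by the share of each gene in the family's summed CPM per kb, with no test, since this uses the contrast on which the set was chosen. Of the sphingosine kinase sum, Sphk1 made up 19.5% and 18.8% in the controls and 53.8%, 52.9% and 54.8% with TGF-β1. Sphk1 thus went from the smaller to the larger share in every treated library. These shares and the kinase sum rest on the Sphk2 level, which is uncertain through its overlap with Rpl18 and Dbp. The kinase sum was 11.8 ± 0.0184 CPM per kb in controls and 19.4 ± 0.814 with TGF-β1.

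Of the sum over the sphingomyelinases Smpd1 to Smpd4, Smpd3 made up 31.8% and 31.6% in the controls and 0.47%, 1.1% and 1.19% with TGF-β1. Smpd5, at 2.53 ± 0.0786 CPM in controls and 2.105 ± 0.212 CPM with TGF-β1, was not part of this sum. Smpd1 made up 50.2 ± 0.0407% in controls and 68.4 ± 1.94% with TGF-β1, although its own level fell. The sum over the 4 genes was 48.5 ± 0.21 CPM per kb in controls and 25.1 ± 0.941 with TGF-β1. Of the Smpd2 exonic bases, 20.3% overlap Mical1 on the opposite strand. Family shares were not recomputed with the longest transcript as length, and the SDs do not cover either limit.

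Among the 3 receptors, S1pr3 took 33.3% of the sum in each control and 19.6%, 17.997% and 22.4% with TGF-β1. S1pr2 had the largest share of the 3 in every library, 39.8 ± 1.71% in controls and 49.6 ± 3.27% with TGF-β1. The S1pr1 share was 26.9 ± 1.71% in controls and 30.4 ± 3.12% with TGF-β1, with overlapping libraries. The receptor sum was 13.3 ± 1.07 CPM per kb in controls and 9.88 ± 0.532 with TGF-β1.

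**Figure D3:**
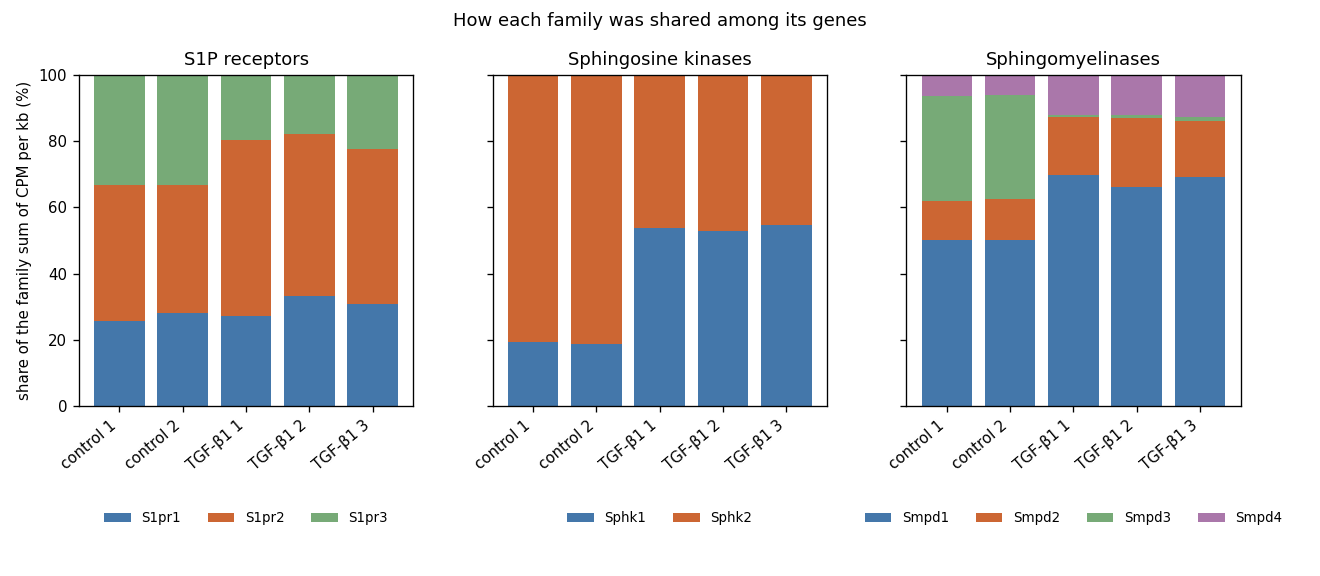
Share of each gene in its family's summed CPM per kb of exon (percent, stacked to 100) in each of the 5 libraries. Families are the S1P receptors S1pr1 to S1pr3, the sphingosine kinases and the sphingomyelinases Smpd1 to Smpd4. The Sphk1 share was 18.8% to 19.5% in controls and 52.9% to 54.8% with TGF-β1, and the Smpd3 share went from over 31% to at most 1.19%. The kinase shares rest on the Sphk2 level, which is uncertain.

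The rest of the sphingolipid pathway was listed as 67 further genes, of which 54 were tested. Of these, 10 rose, 19 fell and 25 did not pass, beside 44.5% called among all tested genes (21.3% higher, 23.2% lower). In log2 fold change their median was −0.075. With library totals 6 were called higher and 24 lower, beside 2325 higher and 4921 lower among all 16380 tested genes. A log2 fold change beyond 1 in either direction was seen for 6 of the 54, beside 2197 of 16366 tested genes, counted once per symbol.

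In the list of other sphingomyelinases and sphingomyelin synthases, 0 rose, 3 fell and 5 did not pass. Smpdl3b, a membrane-anchored sphingomyelinase-like protein, fell from 6.05 ± 0.256 to 1.82 ± 0.117 CPM, a log2 fold change of −1.73 (SE 0.16, edgeR adjusted p = 2.1e-05). Smpdl3a, its secreted relative, fell from 42.4 ± 0.552 to 28.3 ± 1.55 CPM, a log2 fold change of −0.58 (edgeR adjusted p = 5.8e-05). Smpd2, another neutral sphingomyelinase, fell from 25.9 ± 0.615 to 20.7 ± 3.07 CPM, a log2 fold change of −0.32 (edgeR adjusted p = 0.039). The Smpd2 call was lost without control replicate 1 or 2 or TGF-β1 replicate 1 or 3 and with no filter on low counts (edgeR adjusted p = 0.059 to 0.19), and 20.3% of its exonic bases overlap Mical1 on the opposite strand. The sphingomyelin synthase genes Sgms1 and Sgms2 and the related Samd8 did not pass, with log2 fold changes of −0.05, 0.22 and 0.09.

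In de novo ceramide synthesis, which builds ceramide from serine and palmitoyl-CoA, 5 of 13 tested genes rose and 4 fell. The ceramide synthases split: Cers4 fell from 18.6 ± 1.42 to 6.87 ± 0.72 CPM, a log2 fold change of −1.44 (SE 0.11, edgeR adjusted p = 7.4e-06), while Cers5 rose from 55.95 ± 1.55 to 74.1 ± 1.96 CPM, a log2 fold change of 0.40 (edgeR adjusted p = 0.00012). Ormdl2, a brake on serine palmitoyltransferase, fell from 8.41 ± 0.414 to 6.57 ± 0.281 CPM, a log2 fold change of −0.36 (edgeR adjusted p = 0.032). That call was lost without either control, without TGF-β1 replicate 1 or 3, with DESeq2 and with the replicate block (adjusted p = 0.057 to 0.16), and 66.7% of the Ormdl2 exonic bases overlap Dnajc14.

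Among other ceramidases, ceramide kinase and ceramide transfer proteins, 1 of 9 tested genes rose and 2 fell. Ceramide kinase, Cerk, fell from 69.95 ± 1.97 to 51.4 ± 2.52 CPM, a log2 fold change of −0.44 (edgeR adjusted p = 0.00014), and the glycolipid transfer protein gene Gltp fell from 52.2 ± 1.47 to 38.5 ± 1.88 CPM, a log2 fold change of −0.44 (edgeR adjusted p = 0.00022). The alkaline ceramidase gene Acer3 rose from 18.9 ± 1.81 to 23.1 ± 2.24 CPM, a log2 fold change of 0.29 (edgeR adjusted p = 0.041). The Acer3 call was lost under 7 of 13 alternatives, including without either control and without TGF-β1 replicate 2 or 3 (adjusted p = 0.051 to 0.27).

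In glycosphingolipid synthesis and breakdown, 3 of 16 tested genes rose and 7 fell. Ugcg, which makes glucosylceramide from ceramide, rose from 40.1 ± 2.71 to 81.97 ± 4.65 CPM, a log2 fold change of 1.03 (SE 0.065, edgeR adjusted p = 1.75e-06). B4galt5, which converts glucosylceramide to lactosylceramide, rose from 76.6 ± 0.055 to 126 ± 4.37 CPM, a log2 fold change of 0.72 (edgeR adjusted p = 1.2e-06). B4galt6 of the same list, also named after its values were seen, went the other way. It fell from 54.6 ± 4.27 to 42.5 ± 1.66 CPM, a log2 fold change of −0.36 (edgeR adjusted p = 0.0012). Gm2a, the lysosomal GM2 activator, fell from 118 ± 1.36 to 76.1 ± 0.977 CPM, a log2 fold change of −0.63 (edgeR adjusted p = 1.5e-06). St8sia1, the GD3 synthase gene, named after its values were seen, was counted 64 and 55 times in the controls and 0, 3 and 0 times with TGF-β1.

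Of 8 tested genes for S1P export, carriers, other receptors and breakdown, 1 rose and 3 fell. Plpp3 and Plpp1 encode lipid phosphate phosphatases that act on S1P and lysophosphatidic acid at the cell surface. Plpp3 fell from 58.6 ± 0.489 to 22.95 ± 2.04 CPM, a log2 fold change of −1.35 (SE 0.072, edgeR adjusted p = 5.3e-07). Plpp1 fell from 133 ± 2.55 to 62.1 ± 4.79 CPM, a log2 fold change of −1.10 (SE 0.061, edgeR adjusted p = 6.8e-07), and 25.8% of its exonic bases overlap Mtrex on the opposite strand. Abcc1, a transporter that can export S1P, rose from 149 ± 0.274 to 178 ± 4.6 CPM, a log2 fold change of 0.26 (edgeR adjusted p = 0.00033). Spns2, the dedicated S1P exporter, was at 3.63 ± 0.0471 and 2.88 ± 0.26 CPM and did not pass (edgeR adjusted p = 0.14).

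**Figure D4:**
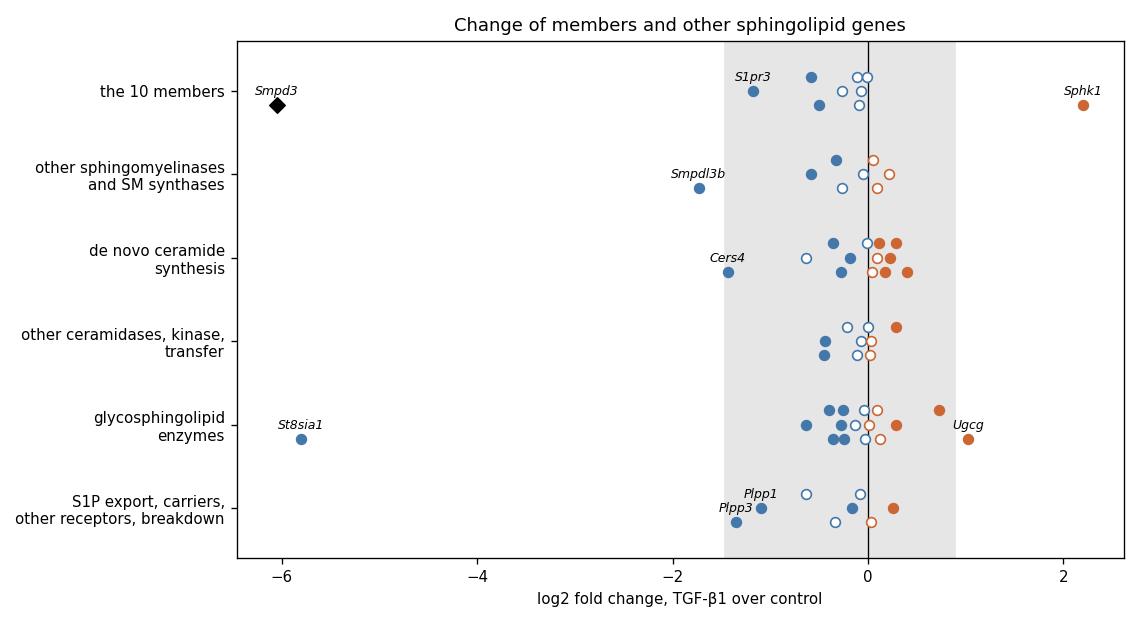
Log2 fold change of TGF-β1 over control (horizontal axis) for the 10 members and the 54 tested genes of 5 other sphingolipid lists; vertical offsets only separate the points. Filled circles passed edgeR's test at an adjusted p under 0.05, open circles did not, the black diamond is Smpd3 (no test), and the grey band spans the 5th to 95th percentile of all 16380 tested genes (−1.46 to 0.89). Smpd3 and Sphk1 are the members outside the band; the fitted value of St8sia1, near 0 counts with TGF-β1, depends on the prior count.

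Genes most like Smpd3 were found by the Euclidean distance between centred log2 CPM profiles over the 5 libraries, among 10926 other genes with a mean of at least 5 CPM. The nearest were Dpysl5 (distance 0.94), Clca3a1 (1.26), Igfbp5 (1.3) and Steap4 (1.35). For example, Steap4 went from 59.7 ± 1.35 to 1.55 ± 0.0334 CPM and Igfbp5 from 38.2 ± 0.716 to 1.06 ± 0.159 CPM. The nearest to Sphk1 were Abcb1a (distance 0.134), Prss46 (0.135) and Ctla2a (0.143), each about as many times higher with TGF-β1 (4.82-fold, 4.67-fold and 4.63-fold). Clca3a1, Abcb1a and Ctla2a have close paralogs, so their counts are uncertain. With 2 groups, such likeness is mostly a matter of the size of the difference.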

How the data were processed

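Polyadenylated RNA of cultured mouse lung fibroblasts was measured in 2 control and 3 TGF-β1 libraries, made with a strand-specific kit per the labels' protocols. The authors deposited whole-number counts per Ensembl gene, unscaled. Per the submitters' processing notes, STAR 2.5.3a, StringTie 1.3.1c and mm10 were used, with no roles given; the counting tool, strand setting and annotation (not given in the sources used here) are unknown. Columns were matched to samples by title, and 55154 of 55335 IDs to GENCODE M21 (GRCm38). Libraries held 34283288 to 43163967 counts.

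Genes passing filterByExpr were scaled with TMM and tested with edgeR 4.0.16 in R 4.3.3. The quasi-likelihood F test was two-sided, on group alone, with Benjamini-Hochberg over all 16380 genes (threshold 0.05). In simulated counts, the test recovered 15 of 48 genes changed 1.25-fold and 28 of 49 changed 1.5-fold. It recovered 30 of 48 changed 2-fold and 42 of 49 changed 4-fold, and 13 calls were false. A gene that did not pass may therefore still differ between the groups. These recovery counts are not split by level, so they do not say how small a difference could pass for a given gene. In the libraries, Abcc1 (149 CPM in controls, SE 0.036) passed at 1.20-fold higher (edgeR adjusted p = 0.00033). S1pr1 (10.97 CPM in controls, SE 0.14) did not pass at 1.20-fold lower (edgeR adjusted p = 0.17). SEs are the absolute log2 fold change over the square root of F. The smallest p of an exact permutation test in this design is 0.1. Alternatives used DESeq2 1.42.0, limma 3.58.1, other scalings and filters, a replicate block and leaving out each library; where 1 control was left, its spread was taken from the TGF-β1 libraries. Named genes were all members; per list, the 3 largest changes with an adjusted p under 0.05 and at least 1 CPM; genes overlapping members; and the nearest profiles (log2 CPM, prior count 2). One gene that this rule names is not reported here. The members and lists were chosen with earlier results of these data known.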

Additional observations from a re-analysis of the deposited data

How the results depend on the processing

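Among the scalings, library totals alone moved the calls most, while median-of-ratios and upper-quartile scaling gave 3522 and 3351 genes higher. Leaving out either control lowered the calls across all genes in both directions. With library totals alone, 2325 genes were called higher (3488 with TMM) and 4921 lower (3799 with TMM). Of the 9 members other than Smpd3, 7 were then lower (3 with TMM). Of the further sphingolipid genes, 6 were then higher (10 with TMM) and 24 lower (19 with TMM). The calls of Sphk1, Smpd1, Sgpp1 and S1pr3 held in all 13 alternatives run, and Smpd3 stayed between −6.24 and −5.73 in log2 fold change. Asah1 alone among the named genes changed sign, running from −0.021 to 0.0043 when 1 library was left out (0.0043 without TGF-β1 replicate 2). Leaving out 1 library at a time gave 1 member higher and 3 to 4 lower. With the longest transcript as length, the members' order kept a Spearman rho of 0.988 in controls and 0.964 with TGF-β1. Deviations of same-numbered libraries from their group means had correlations of 0.0159 and 0.0161 across genes. With 2 controls these deviations mirror each other, so the values cannot decide whether the numbers pair libraries. A replicate block gave 3538 genes higher and 3727 lower, and among the named genes it ended the calls of Ormdl2 and Acer3. No control is numbered 3, so this fit nearly repeats that without TGF-β1 replicate 3. For Smpd1 the log2 fold change was −0.4838 with the block and −0.4834 without that library. The 2 fits are therefore not separate checks. Among the 10 members, counting error relative to the level was widest for Smpd3 with TGF-β1, at 25 to 63 counts a library.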
